A study of Mus musculus with 4 samples.

Results

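The genes described here belong to 4 families of secreted proteins: the secretoglobins (Scgb), the BPI-fold proteins (Bpif), the major urinary proteins (Mup) and the odorant-binding proteins (Obp). They were chosen by symbol, through the RefSeq accession of each probe, after earlier results of the same arrays were known, so their values are given as a description. The array held a probe for 49 of the 22911 genes it names: 23 Scgb, 13 Bpif, 11 Mup and 2 Obp genes. RefSeq (GRCm38.p6) lists 93 genes with such symbols, and the other 44, among them Bpifb9a, Mup7 and Obp1b, had no matched probe. The study profiled total RNA of mouse PDL, the periodontal ligament that ties the tooth root to its socket, on single-colour Agilent arrays. It compared Mkx-KO with WT mice at 10 weeks and at 4 weeks of age, with 1 array in each of the 4 groups. Mkx (Mohawk) encodes a homeobox transcription factor of tendons and ligaments. The labels say nothing of the knockout construct, the sex of the mice or how many mice gave each RNA, so no difference has a replicate check and none is given a p-value.

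Mup and Obp proteins are lipocalins, barrel-shaped proteins that hold small volatile molecules, and the mouse uses them as scent carriers in urine, saliva, tears and nasal mucus. BPI-fold proteins share a lipid-binding fold with the bactericidal/permeability-increasing protein and are made mainly by the lining and glands of the mouth, nose and airway. Secretoglobins are small dimeric proteins of mucosal fluids, and the rodent Scgb1b and Scgb2b genes encode the alpha and the beta-gamma subunits of androgen-binding protein, which is found in saliva and tears.

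Levels are log2 processed signals minus the array's 75th percentile, and a difference of levels of 1 is a 2-fold difference. Levels belong to a probe, so they are read across arrays and not between genes. A gene was measured in a comparison when its probe was well above background on both arrays by the scanner's flag. When that held on 1 array only, the difference is given as a bound, the level on the brighter array against the higher of the other array's own level and its lowest level well above background. The error that the scanner assigns to a measured difference of these genes ranged from 0.204 to 0.365 and covers only the reading of the spot.

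Mkx itself had levels of 0.84 (WT) and -1.26 (Mkx-KO) at 10 weeks, against 1.08 (WT) and -0.57 (Mkx-KO) at 4 weeks. Mkx was therefore lower by 2.10 and by 1.65 on the log2 scale in the arrays labelled Mkx-KO, as those labels imply, although where the probe lies relative to the deletion is not given. All 13 periodontal ligament fibroblast markers with a probe, among them Postn and Tnmd, were well above background on all 4 arrays. Their summed level, in units of the array's 75th percentile, was 2626 on the 10-week WT array, 2835 on the 10-week Mkx-KO array, 2759 on the 4-week WT array and 2753 on the 4-week Mkx-KO array. Lists of 4 values below keep this order. Col1a2, Col1a1, Col3a1, Postn and Dcn carried most of each of these sums, which therefore show little of the other markers. Lox, a small part of them, was higher in Mkx-KO by 0.95 at 10 weeks and 0.88 at 4 weeks. The median difference of the 13 markers was 0.17 at 10 weeks and 0.05 at 4 weeks.

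Some of these genes have near-identical promoters, and 300-base promoter sequences (RefSeq, GRCm38.p6, coding strand, 5′ to 3′) show how close they can be. The transcripts themselves were not compared. Of the 49 genes, 39 had a promoter in the table. The first set is Mup17 and Mup2, whose probes gave different patterns, with the Mup2 probe dim on every array. Their promoters are almost the same: chr4:61595783-61596082 and chr4:60139807-60140106, both on the minus strand. Capitals mark the bases that differ or have no partner inside the aligned stretch of the pair: 2 mismatches and 3 unpaired bases, with 293 identical bases. Bases beyond the ends of that stretch stay in lower case.
Mup17: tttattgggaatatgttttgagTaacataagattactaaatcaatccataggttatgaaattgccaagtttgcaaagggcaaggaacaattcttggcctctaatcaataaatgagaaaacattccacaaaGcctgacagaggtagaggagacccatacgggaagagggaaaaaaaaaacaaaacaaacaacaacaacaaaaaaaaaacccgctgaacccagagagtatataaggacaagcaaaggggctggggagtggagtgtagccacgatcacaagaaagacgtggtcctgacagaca
Mup2: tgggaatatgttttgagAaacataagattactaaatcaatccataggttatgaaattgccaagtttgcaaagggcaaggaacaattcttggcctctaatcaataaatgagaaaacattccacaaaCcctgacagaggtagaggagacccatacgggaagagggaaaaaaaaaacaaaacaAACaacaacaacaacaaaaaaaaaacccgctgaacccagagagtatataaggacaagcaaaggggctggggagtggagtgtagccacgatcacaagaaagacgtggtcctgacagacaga

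The second set, also on the minus strand, is Scgb2b20 at chr7:33366270-33366569 and Scgb2b7 at chr7:31705705-31706004, with 4 mismatches and 293 identical bases. It is shown because their genotype differences at 10 weeks were unlike, 2.64 for Scgb2b20 and -0.36 for Scgb2b7, the latter within its scanner error of 0.365.
Scgb2b20: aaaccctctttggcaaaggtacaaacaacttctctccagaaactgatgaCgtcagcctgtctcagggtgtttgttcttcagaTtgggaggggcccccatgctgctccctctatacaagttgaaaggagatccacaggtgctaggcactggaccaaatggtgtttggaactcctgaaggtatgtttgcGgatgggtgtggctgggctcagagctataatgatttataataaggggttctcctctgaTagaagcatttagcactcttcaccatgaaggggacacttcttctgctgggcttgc
Scgb2b7: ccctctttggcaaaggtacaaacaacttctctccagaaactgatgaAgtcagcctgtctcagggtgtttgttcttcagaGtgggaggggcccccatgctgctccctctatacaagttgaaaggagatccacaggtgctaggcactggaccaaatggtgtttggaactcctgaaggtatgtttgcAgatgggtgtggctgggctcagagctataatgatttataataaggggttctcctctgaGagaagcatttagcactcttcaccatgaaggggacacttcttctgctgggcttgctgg

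The third set shows neighbours that were both lower in Mkx-KO at both ages, Bpifb6 at chr2:153900138-153900437 and Bpifb3 at chr2:153917948-153918247, on the plus strand. The best alignment of these promoters pairs only 63 bases, of which 44 are identical. Capitals here mark TATAA.
Bpifb6: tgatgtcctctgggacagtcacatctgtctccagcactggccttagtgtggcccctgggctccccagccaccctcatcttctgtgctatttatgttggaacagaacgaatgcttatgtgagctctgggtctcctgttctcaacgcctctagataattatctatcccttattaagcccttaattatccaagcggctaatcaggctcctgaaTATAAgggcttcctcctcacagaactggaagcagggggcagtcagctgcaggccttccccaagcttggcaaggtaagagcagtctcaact
Bpifb3: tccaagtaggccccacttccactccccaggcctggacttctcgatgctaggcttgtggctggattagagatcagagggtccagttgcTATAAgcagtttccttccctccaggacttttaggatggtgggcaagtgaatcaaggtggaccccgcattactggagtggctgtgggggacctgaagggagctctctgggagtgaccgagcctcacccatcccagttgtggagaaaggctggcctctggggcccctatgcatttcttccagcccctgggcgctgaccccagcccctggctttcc

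For pairs of genes of one subfamily, the identical bases of the best alignment were taken as a share of 300, however short the overlap. A low share can thus come from a short overlap, such as the 29 aligned bases of Bpifb2 and Bpifb1 (8.67%). The share had a median of 82.3% in 28 Mup pairs and 80.2% in 36 Scgb2b pairs. It was 64% in 10 Scgb1b pairs, 49.2% in 10 Bpifa pairs and 38.3% in 21 Bpifb pairs. Probe sequences were not used here, and closely related Mup or Scgb transcripts may share signal on a probe. TATAA between 40 and 20 bases before the start, on the coding strand, was found in 19 of the 39 promoters (6 of 8 Mup, 8 of 16 Scgb, 4 of 13 Bpif and 1 of 2 Obp). The same window held it in 3.52% of all 32851 promoters.

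Anywhere in the 300 bases and on either strand, TATAA was in 8 of 8 Mup, 14 of 16 Scgb, 6 of 13 Bpif and 2 of 2 Obp promoters, against 24.9% of all promoters. AGAACA, part of the steroid receptor element, was in 9 of 13 Bpif, 8 of 16 Scgb, 2 of 8 Mup and 1 of 2 Obp promoters, against 18.97% of all. TTCNNNGAA, the STAT core, was in 1 of 16 Scgb promoters and in none of the Bpif, Mup or Obp promoters, against 8.30% of all. CCCNNGGG, the core bound by Ebf factors, was in 2 of 13 Bpif promoters (Bpifb6 and Bpifb3) and 1 of 16 Scgb promoters (Scgb1c1), against 13.7% of all. TGTTTAC, a forkhead core, was in 0 of the 39, against 3.65% of all. No motif contains another. They were picked with the expression values known, and are a description of these letters only.

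Detection already set the 4-week Mkx-KO array apart. Of the 49 genes, 41 were well above background in WT at 10 weeks, 39 in Mkx-KO at 10 weeks, 43 in WT at 4 weeks and 22 in Mkx-KO at 4 weeks. Over all genes named on the array the shares were 73.7%, 72.7%, 71.5% and 69.6%. There were 20 genes detected on every array but the 4-week Mkx-KO array: 9 Mup, 6 Bpif, 4 Scgb and 1 Obp. A further 19 were detected on all 4 arrays. Scgb1b7 and Scgb1b19 missed the flag on the 10-week Mkx-KO array only, Scgb2b24 missed it on both 10-week arrays, and Scgb1b24 had it on the 4-week WT array only. The remaining 6 (Bpifa3, Scgb1b30, Scgb2b3, Scgb2b12, Scgb2b23-ps and Scgb2b26) were on no array well above background, with levels between -7.06 and -4.49.

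**Figure D1:**
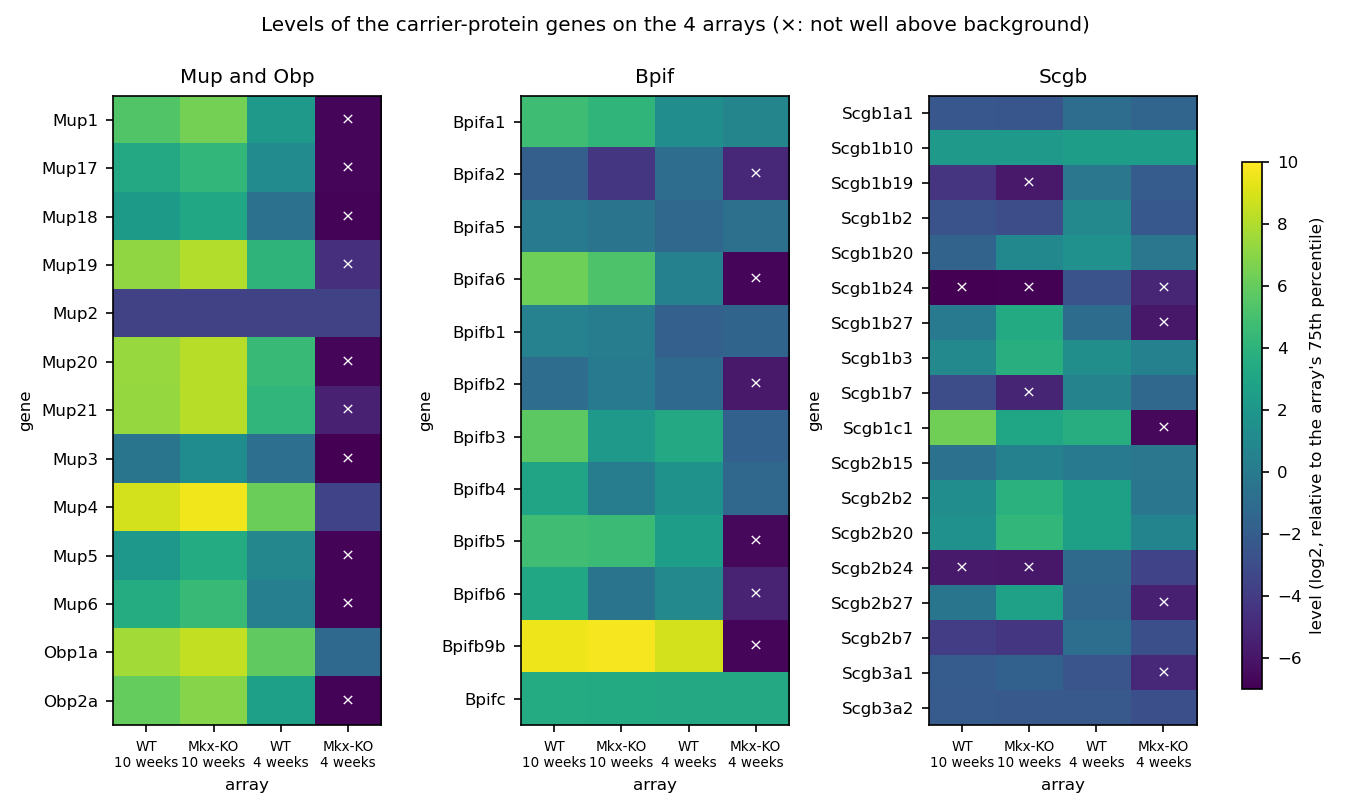
Levels of the 43 genes that were well above background on at least 1 array (rows) on the 4 arrays (columns), as log2 relative to the array's 75th percentile, in colour; a cross marks a spot not well above background. Colours are to be compared along a row, and 20 genes carry a cross on the 4-week Mkx-KO array only.

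The lipocalin scent carriers were well above background on 3 arrays, and all but Mup2, Mup4 and Obp1a were not so on the 4-week Mkx-KO array. Mup4, a major urinary protein made in nasal and other glands, had a level of 8.85 (WT) and 9.61 (Mkx-KO) at 10 weeks, against 6.15 (WT) and -3.59 (Mkx-KO) at 4 weeks. The 4-week Mkx-KO level was the low value, and the 10-week genotypes were 0.76 apart in the other direction. Obp1a, an odorant-binding protein of nasal mucus, had levels of 7.64, 8.46, 5.84 and -1.17 in that order. Obp2a had levels of 5.95, 6.93 and 2.57 on the first 3 arrays and was not well above background in Mkx-KO at 4 weeks, where WT was at least 152-fold higher.

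Mup20 (darcin), the protein pheromone of male urine, had levels of 7.38 (WT) and 8.19 (Mkx-KO) at 10 weeks and 4.51 in WT at 4 weeks. Mup19 read 7.18, 8.02 and 4.03, Mup21 read 7.31, 8.15 and 4.17, and Mup1 read 5.41, 6.42 and 2.21 on these arrays. None of these 4 was well above background in Mkx-KO at 4 weeks. The same order, Mkx-KO at 10 weeks above WT at 10 weeks and both above WT at 4 weeks, was seen in Mup17 (3.24, 4.26 and 1.21, with WT first) and in Mup6 (3.50, 4.52 and 0.32). It was also seen in Mup5 (2.07, 3.46 and 0.84), Mup18 (2.24, 3.10 and -0.67) and Mup3 (-0.41, 1.25 and -0.77).

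At 10 weeks the 5 Mup genes at least 2-fold higher in Mkx-KO were Mup3 (difference of 1.66), Mup5 (1.39), Mup17 (1.03), Mup6 (1.02) and Mup1 (1.01). Obp2a (0.98), Mup18 (0.86), Mup19 (0.84), Mup21 (0.84), Obp1a (0.82), Mup20 (0.81) and Mup4 (0.76) fell short of that threshold. The calls of Mup1, Mup6 and Mup17 lie close to it, and with the deposited scaling they were 0.96, 0.97 and 0.97. At 4 weeks, 9 Mup genes were lower in Mkx-KO by bounds that ran from at least 15-fold (Mup3) to at least 583-fold (Mup20). Bounds of different genes rank the WT level and not the size of the difference. With normexp, all 21 bounds of these families at 4 weeks were smaller, by a median of 2.39 on the log2 scale. The mean over probes left Mup3 just under 2-fold (-0.995) and Mup21 at -4.43.

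Mup2 was the exception. Its probe was well above background on all 4 arrays with levels of -3.71, -3.71, -3.69 and -3.70, so the 4 arrays differed by less than the scanner error. These levels lie close to the lowest level well above background on each array (-4.90, -4.69, -4.53 and -4.68). Whether the Mup2 probe reads its transcript is therefore not known. The second probe of Mup20 gave a difference of 1.04 at 10 weeks. A second probe of Mup21 and a second probe of Mup3 were not well above background on any array, so these genes rest on 1 probe each.

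**Figure D2:**
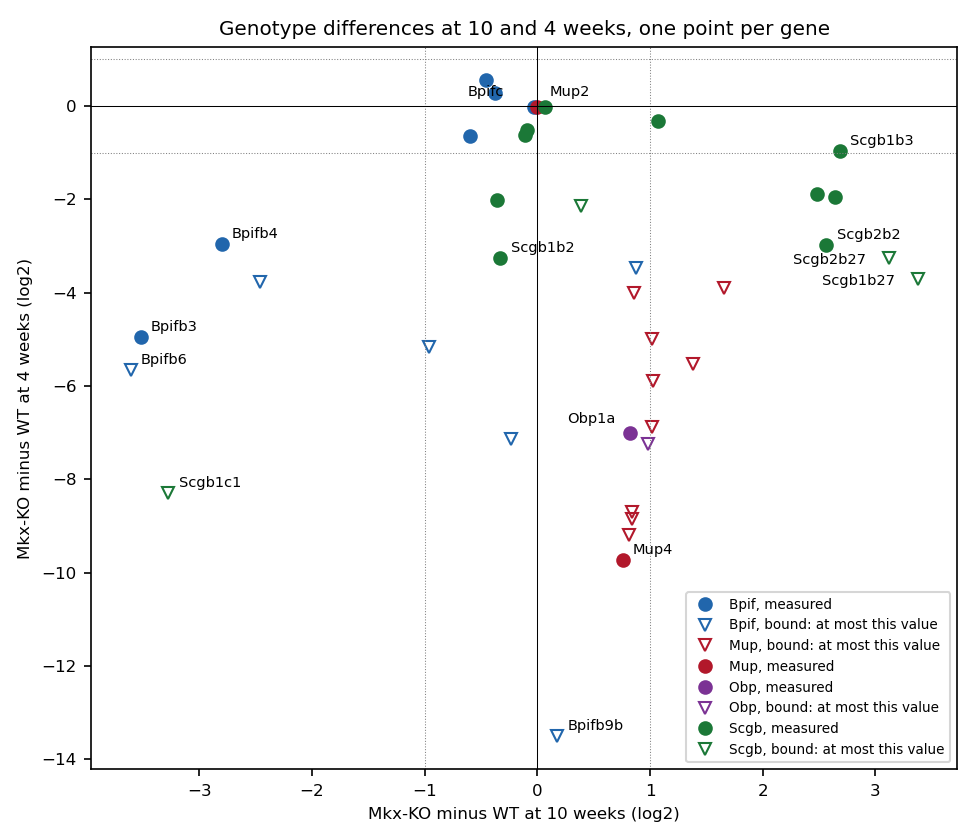
Difference between Mkx-KO and WT at 10 weeks (horizontal axis) and at 4 weeks (vertical axis), in log2, 1 point a gene measured at 10 weeks. Filled circles are measured at both ages and open triangles are bounds at 4 weeks, where the true value lies at or below the mark; dotted lines mark 2-fold. Mup and Obp genes other than Mup2 lie between 0.76 and 1.66 at 10 weeks, and Bpifa2, Bpifb3, Bpifb4, Bpifb6 and Scgb1c1 lie left of -2.

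The Bpif genes split along their chromosome. RefSeq places 13 Bpif genes on chromosome 2, and 3 that follow each other in the family's order, Bpifb6, Bpifb3 and Bpifb4, were lower in Mkx-KO at both ages. Bpifb3 had a level of 5.70 (WT) and 2.18 (Mkx-KO) at 10 weeks, against 3.24 (WT) and -1.72 (Mkx-KO) at 4 weeks. Both Mkx-KO arrays were below both WT arrays. Bpifb4 did the same with levels of 2.94, 0.14, 1.71 and -1.25, and the rat counterparts of these genes were first found in olfactory mucosa. Bpifb6 read 3.12, -0.49 and 0.99 and was not well above background in Mkx-KO at 4 weeks, where WT was at least 50.6-fold higher. A second probe of Bpifb4 gave differences of -3.05 at 10 weeks and -2.92 at 4 weeks. A second probe of Bpifb6 gave -2.92 at 10 weeks.

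Next in the order, Bpifa6 had levels of 6.23 (WT) and 5.27 (Mkx-KO) at 10 weeks and of 0.48 in WT at 4 weeks, where WT was at least 35.8-fold above Mkx-KO. Bpifa2, the parotid secretory protein, read -1.88, -4.34 and -0.90, and was thus lower in Mkx-KO by 2.46 on the log2 scale at 10 weeks, or by 0.86 with another background correction (normexp). At 4 weeks its WT level was at least 13.7-fold above Mkx-KO. Bpifb2, at the start of the cluster, was 0.88 higher in Mkx-KO at 10 weeks and at least 11.1-fold lower at 4 weeks.

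The middle of the cluster differed little between genotypes. Bpifa1 (SPLUNC1), an airway surface protein, had levels of 4.72 and 4.12 in WT and Mkx-KO at 10 weeks and of 1.36 and 0.72 at 4 weeks. Its genotype differences were -0.60 and -0.64, while both genotypes were over 3 log2 units higher at 10 than at 4 weeks. Bpifa5 differed by -0.46 at 10 weeks and 0.56 at 4 weeks, and Bpifb1 by -0.38 and 0.28. These 3 genes stayed well above background in Mkx-KO at 4 weeks.

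At the far end, Bpifb9b, related to rat vomeromodulin of the vomeronasal and nasal glands, had levels of 9.56 (WT) and 9.74 (Mkx-KO) at 10 weeks and of 8.83 in WT at 4 weeks. In Mkx-KO at 4 weeks its level was -6.75, not well above background. Bpifb5 read 4.80, 4.57 and 2.46, and WT was at least 141-fold above Mkx-KO at 4 weeks. Bpifc, which lies on chromosome 10 and not in the cluster, had levels of 3.45, 3.42, 3.27 and 3.25, with genotype differences of -0.03 and -0.02.

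**Figure D3:**
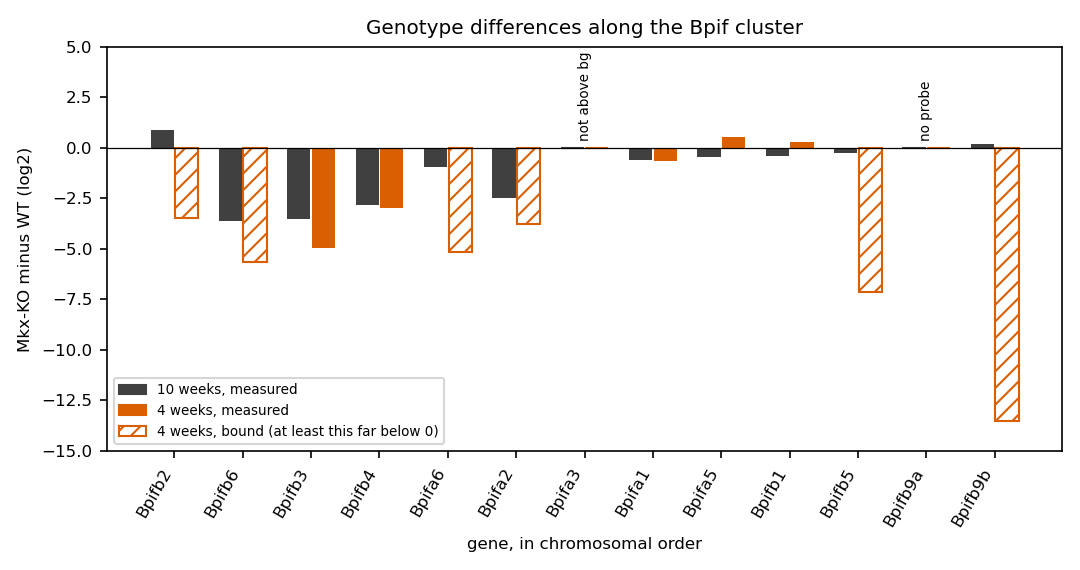
Difference between Mkx-KO and WT in log2 (vertical axis) for the 13 Bpif genes of chromosome 2 in their RefSeq order (horizontal axis), at 10 weeks (grey) and 4 weeks (orange). Hatched bars are bounds, so the difference reaches at least that far below 0. Bpifb6, Bpifb3, Bpifb4 and Bpifa2 are below -2 at both ages, while Bpifb5 and Bpifb9b are near 0 at 10 weeks and below -7 at 4 weeks.

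At 10 weeks the secretoglobins did not move as 1 family between genotypes. At 4 weeks all 13 measured Scgb genes had negative differences, from -3.26 to -0.03 with a median of -1.85. Of all 15686 measured genes, 6457 had negative differences at 4 weeks. Scgb1c1, an olfactory mucosa secretoglobin, had levels of 6.30 (WT) and 3.03 (Mkx-KO) at 10 weeks and of 3.62 in WT at 4 weeks. Scgb1c1 was lower in Mkx-KO by 3.27 on the log2 scale at 10 weeks, and at 4 weeks WT was at least 314-fold above Mkx-KO. The airway genes Scgb1a1 (club cell protein), with differences of -0.09 and -0.51, and Scgb3a2, with -0.11 and -0.62, stayed within 2-fold at both ages. Scgb3a1 was 0.39 higher in Mkx-KO at 10 weeks and at least 4.43-fold lower at 4 weeks, a bound that was under 2-fold with normexp (-0.77).

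The 6 members higher in Mkx-KO at 10 weeks by over 2 log2 units were all androgen-binding protein genes. Scgb1b27, the alpha subunit of salivary androgen-binding protein, had levels of 0.02 (WT) and 3.39 (Mkx-KO) at 10 weeks and of -0.97 in WT at 4 weeks, with Mkx-KO at 4 weeks not well above background. Its partner Scgb2b27 read -0.38, 2.74 and -1.42 and was likewise not well above background in Mkx-KO at 4 weeks. At 4 weeks WT was at least 13-fold above Mkx-KO for Scgb1b27 and at least 9.58-fold for Scgb2b27. On the log2 scale these bounds are -3.70 and -3.26, and with normexp they were -1.74 and -1.23. The mean over probes gave -0.69 for Scgb2b27, under 2-fold. A second probe of Scgb2b27 was well above background in Mkx-KO at 10 weeks only.

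Scgb2b20 had levels of 1.61 and 4.25 in WT and Mkx-KO at 10 weeks and of 2.64 and 0.68 at 4 weeks. The Mkx-KO arrays were thus the highest and the lowest of the 4. Scgb1b20 (-1.56, 0.92, 1.59 and -0.29) and Scgb2b2 (1.31, 3.87, 2.63 and -0.35) were also higher in Mkx-KO at 10 weeks and lower at 4 weeks. Scgb1b3 (0.99, 3.68, 1.43 and 0.47) was higher by 2.68 at 10 weeks and lower by 0.96 on the log2 scale at 4 weeks, just short of 2-fold.

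A second group was lower in Mkx-KO at 4 weeks without being higher at 10 weeks. Scgb1b2 had levels of -2.67 and -3.002 at 10 weeks and of 0.98 and -2.29 at 4 weeks, in WT and Mkx-KO. Scgb2b7 read -3.93, -4.29, -0.83 and -2.84. Scgb1b7 read -2.95 in WT at 10 weeks, was not well above background in Mkx-KO at 10 weeks, and read 0.60 and -1.25 at 4 weeks. In all 3 the 4-week WT array was the highest, and so it was for Scgb1b19, with -0.23 (WT) and -2.06 (Mkx-KO) at 4 weeks and -4.41 in WT at 10 weeks. Scgb1b24 and Scgb2b24 were not well above background on either 10-week array.

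Scgb1b10 was level, with 2.10, 2.17, 2.54 and 2.51. Scgb2b15 differed by 1.07 at 10 weeks and -0.32 at 4 weeks. Its second probe was well above background in WT at 10 weeks only, so its probes point in opposite directions at 10 weeks and their mean gives -0.98.

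For 6 numbers both an Scgb1b and an Scgb2b gene had a probe. At 10 weeks the genotype differences of pair 27 were 3.37 and 3.12 and those of pair 20 were 2.48 and 2.64, with the Scgb1b gene first. At 4 weeks both genes of pair 27 have bounds only, so how alike they were is not measured. In that comparison pair 20 gave -1.88 and -1.96, and pair 7 gave -1.85 and -2.02. Pair 24 gave -2.48 for Scgb2b24 (-1.18 with normexp) and a WT level at least 4.05-fold above Mkx-KO for Scgb1b24, under 2-fold with normexp (-0.83). Pair 2 split at 10 weeks, with -0.33 for Scgb1b2 and 2.56 for Scgb2b2, and gave -3.26 and -2.98 at 4 weeks. In pair 3, Scgb2b3 was not well above background on any array. RefSeq lists 48 Scgb1b and Scgb2b genes and pseudogenes on chromosome 7, and the genes of each pair follow each other in that order.

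**Figure D4:**
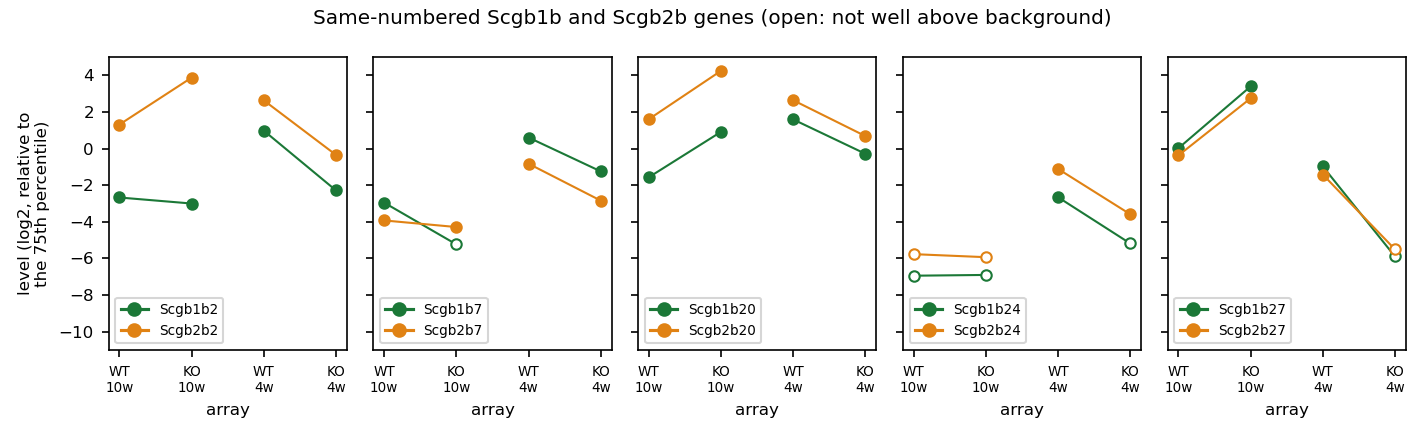
Levels (vertical axis, log2 relative to the array's 75th percentile) of 5 same-numbered Scgb1b (green) and Scgb2b (orange) genes on the 4 arrays (horizontal axis), with lines joining the genotypes of one age and open circles where a spot was not well above background. Pair 20 has filled circles on all 4 arrays, pair 27 has open circles in Mkx-KO at 4 weeks, and in pair 2 only Scgb2b2 is higher in Mkx-KO at 10 weeks.

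Counted over the families at 10 weeks, 12 of the 39 measured genes reached 2-fold higher in the knockout (7 Scgb and 5 Mup), against 1.04% of all measured genes. At least 2-fold lower were 5 of the 39 (4 Bpif and 1 Scgb), against 1.37% of all. With bounds, 12 of 41 were higher, against 1.22% of all, and 6 of 41 were lower, against 1.52%. The median difference was 0.73 over 14 measured Scgb genes (0.23 with means over probes and 0.19 with no background filter), -0.53 over 12 Bpif, 0.86 over 11 Mup and 0.90 over 2 Obp genes, and 0.01 over all 16457 measured genes. Because these genes were put together with such results known, the shares describe the set and test nothing.

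At 4 weeks, 0 of 22 measured genes reached 2-fold higher in the knockout, where 0.472% of all measured genes were. At least 2-fold lower were 12 of the 22 (8 Scgb, 2 Bpif, 1 Mup and 1 Obp), against 3.31% of all. With bounds, 0 of 43 were higher, against 0.582% of all, and 33 of 43 were lower, against 5.41%. The 33 were 13 of 18 Scgb, 8 of 12 Bpif, 10 of 11 Mup and 2 of 2 Obp genes. The median over all 15686 measured genes was 0.06. The genotype comparisons share no array with each other, but each shares its arrays with the age comparisons that follow.

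With age in WT, most Mup, Obp and Bpif genes were higher, while Scgb genes went both ways. In WT, 21 of 41 measured genes were at least 2-fold higher at 10 than at 4 weeks, against 5.01% of all measured genes: 9 of 11 Mup, 8 of 12 Bpif, 2 of 2 Obp and 2 of 16 Scgb genes (Scgb1c1 and Scgb2b27). The 8 that were at least 2-fold lower, against 3.83% of all, were all Scgb genes. With bounds, 21 of 43 were higher, against 5.79%, and 10 of 43 were lower, against 4.48%. Bpifa6 had the highest age difference of the measured genes in WT, 5.74, and 6 Mup genes (Mup1, Mup6, Mup19, Mup21, Mup18 and Mup20) were 2.87 to 3.20 higher. Scgb1b19 (-4.18), Scgb1b2 (-3.65), Scgb1b7 (-3.56), Scgb1b20 (-3.15) and Scgb2b7 (-3.10) were the lowest.

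In Mkx-KO, 10 of 19 measured genes were at least 2-fold higher at 10 weeks, against 6.25% of all, and 2 of 19 (Scgb1a1 and Scgb2b7) were at least 2-fold lower, against 3.84%. With bounds, 29 of 42 were higher, against 8.87%, and 5 of 42 were lower, against 3.97%. Mup4 was 13.20 and Obp1a 9.63 higher at 10 weeks in Mkx-KO, where WT gave 2.70 and 1.80. Scgb2b2 was 4.22 higher in Mkx-KO and 1.32 lower in WT on the log2 scale, and Scgb1b20 was 1.20 higher in Mkx-KO and 3.15 lower in WT. No test of these differences between genotypes is possible with 1 array a group.

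The median age difference in WT was 2.87 over 11 measured Mup genes, 1.70 over 12 Bpif, 2.59 over 2 Obp and -0.85 over 16 Scgb genes, against -0.10 over all 16102 measured genes. In Mkx-KO it was 1.54 over 6 Bpif and 0.67 over 10 Scgb genes, against -0.15 over all 15669. These Mkx-KO medians leave out genes with bounds only, such as Bpifb9b, at least 14.4 higher at 10 weeks on the log2 scale. With bounds, 9 of 12 Bpif and 8 of 17 Scgb genes were at least 2-fold higher, against 8.87% of all. At least 2-fold lower were 0 of 12 Bpif and 5 of 17 Scgb genes, against 3.97%. The Mkx-KO and WT medians thus cover different genes.

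Marker genes of other tissues changed between the arrays as well. Of 15 olfactory sensory neuron markers, 15 were well above background on each of the first 3 arrays and 8 in Mkx-KO at 4 weeks. Their summed level was 56.0 (WT) and 46.6 (Mkx-KO) at 10 weeks, against 47.9 (WT) and 1.76 (Mkx-KO) at 4 weeks. Omp, the marker of mature olfactory neurons, had levels of 5.16, 4.85, 4.87 and -3.26 in that order. Cnga2, Cnga4 and Cngb1 form their transduction channel, and their probes lost the flag on the 4-week Mkx-KO array. At 4 weeks 13 of the 15 markers were at least 2-fold lower in Mkx-KO, measured or by bound, against 5.41% of all genes. Adcy3, with a difference of 0.02, was not among the 13.

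The nasal gland and olfactory supporting cell list had 13 of 13 genes detected on the first 3 arrays and 8 on the fourth, with summed levels of 267, 224, 137 and 42.4. Without Aldh3a1 and Ermn, which carried most of the last sum, the levels were 209, 164, 105 and 2.04. At 4 weeks 10 of the 13 genes fell short of WT by 2-fold or more, measured or by bound, against 5.41% of all genes. Aldh3a1 (0.45), Gldc (0.22) and Ermn (0.10) were slightly above WT. Cyp2g1, an olfactory mucosa enzyme, read 3.78, 3.59 and 3.51 and was not well above background in Mkx-KO at 4 weeks. Odorant carriers outside these families also had 13, 13, 13 and 8 of 13 genes detected, with summed levels of 393, 616, 159 and 33.6. Wfdc18 and Lcn11 carried most of the 10-week Mkx-KO sum, and Odam, Cbr2 and Lcn2 most of the 4-week Mkx-KO sum. At 10 weeks the list's median difference was 0.11. Measured or by bound, 2 of 13 were then at least 2-fold higher in Mkx-KO and 5 lower, against 1.22% and 1.52% of all genes. At 4 weeks 10 were lower, against 5.41% of all, and 0 higher, against 0.582%, while Odam was 0.85 above WT. Among these carriers the lipocalin Lcn11 (6.497, 7.84, 3.96 and -3.66) kept the order of the Mup genes over the arrays. Chil6, a chitinase-like protein, read 2.996, 0.12 and 1.48 and was not well above background in Mkx-KO at 4 weeks. The part of nasal tissue in the differences of the Mup, Obp, Bpif and Scgb genes was not tested, and in bulk RNA fewer cells of a type and less RNA per cell cannot be told apart.

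Salivary and lacrimal acinar markers had 14, 14, 14 and 10 of 15 genes detected, with summed levels of 40.7, 44.0, 35.2 and 31.2, and Prol1 was not well above background on any array. Tcn2 carried most of that sum, and without it the levels were 15.1, 16.4, 8.03 and 3.75. At 4 weeks 6 of the 15 were at least 2-fold lower in Mkx-KO, measured or by bound, against 5.41% of all genes. Among the 6 were the saliva proteins Pip (-4.62), Car6 (at least 21.8-fold) and Dcpp2 (at least 14.4-fold). Of the salivary duct kallikreins and growth factors, 14, 15, 11 and 9 of 16 were detected, with summed levels of 6.37, 8.29, 2.37 and 1.72. At 10 weeks 5 of these 16 reached 2-fold higher in the knockout, measured or by bound, against 1.22% of all genes. These 5 were dim, with 10-week WT levels from -5.69 (not well above background) to -2.69. Over the 14 measured genes of the list the median difference was 0.51. The part of salivary gland in those values was not tested.

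Ciliated and secretory airway markers had 14, 14, 12 and 9 of 14 genes detected, with summed levels of 106, 134, 95.9 and 62.2. Tppp3 and Lyz1 carried most of the last sum. At 4 weeks 7 of the 14 were at least 2-fold lower in Mkx-KO, measured or by bound, against 5.41% of all genes. Stratified oral epithelium had 11 of 12 detected on every array, all but Ivl, with summed levels of 960, 527, 389 and 669, and thus was not lowest in Mkx-KO at 4 weeks. In the liver, the best known source of Mup proteins, the hepatocyte markers Alb, Apoa1, Apob, Fga, Fgb and Cps1 mark the cells. None of these 6 was well above background on any array. They belong to a list of 14 hepatocyte genes, of which 7 were detected on each array, with summed levels of 5.56, 5.47, 8.27 and 5.78. Apoa2 (1.86, 1.79, 1.96 and 1.81), Apoc3, Serpina1a, Serpina1b, Ahsg and Tat were well above background on all 4 arrays. A liver source of the Mup signal was not tested.

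**Figure D5:**
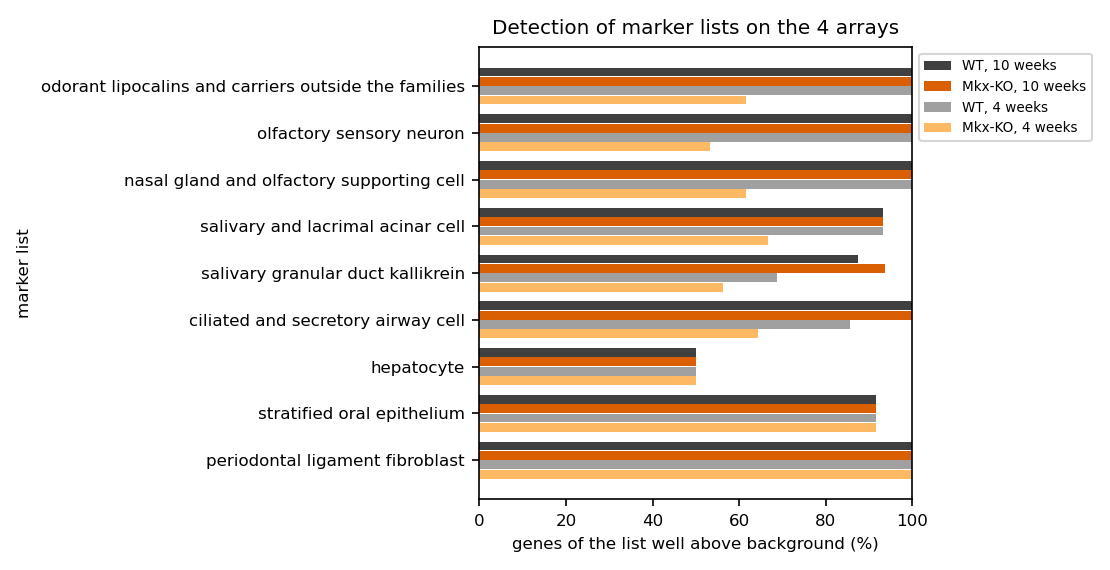
Share of the genes with a probe that were well above background (horizontal axis, percent) for 9 marker lists (vertical axis), 1 bar for each of the 4 arrays. The lists of olfactory neurons, nasal glands and odorant carriers drop from 100% to their lowest share on the 4-week Mkx-KO array, while periodontal ligament fibroblast markers stay at 100%.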

How the data were processed

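Per the labels' protocols, total RNA (0.1 µg) was labelled with Cy3 and hybridised to 1 Agilent array a group. Per the submitters' processing notes, the software was Agilent Feature Extraction 11.5.1.1. The deposited scanner files give each spot's processed signal as an intensity on a linear scale, with its error and a flag for well above background, and the deposited series table gives the same intensity times 1 factor per array (1.81, 2.08, 1.64 and 1.54). The genome build behind the authors' annotation was not used here. Control and outlier spots were left out, log2 intensities were centred on each array's 75th percentile, and probes were named through RefSeq accessions (32994 of 56605 probes). The probe with the highest mean log2 signal stood for a gene, and none of the members' spots was saturated or an outlier. A call was at least 2-fold. The code that makes the calls was run on simulated arrays with planted shifts, which says nothing of variation between animals or dissections. Members, lists and motifs were chosen with earlier results of these data known. Every member could be named, and up to 4 genes of each marker list with the largest genotype differences, plus Mkx. Cnga2, Cngb1, Postn, Tnmd, Alb, Apoa1, Apoa2, Apob, Apoc3, Fga, Fgb, Cps1, Tat, Prol1, Tcn2, Aldh3a1, Gldc, Ermn, Odam, Cbr2, Lcn2, Tppp3, Lyz1 and Ivl were named after their values were seen. So were Adcy3, Col1a1, Col1a2, Col3a1 and Dcn. Alternatives were normexp (limma 3.58.1, R 4.3.3, offset 50), quantile and median centring, the series table, means over probes, no background filter, and thresholds of 1.5-fold, 3-fold and 2 scanner errors. With 1 array a group, the number of arrays limits precision and no test was made. Python 3.11.15, pandas 2.3.3 and Biopython 1.88 (pairwise alignment of promoters) were used. Protein identity between members was planned and was not analysed here.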

Additional observations from a re-analysis of the deposited data

Results flagged for a closer look

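Opposite genotype differences at the 2 ages, at least 2-fold each way, were found in 10 genes. Each value below is the difference at 4 weeks (or its bound) minus that at 10 weeks, in log2, and none could be tested with 1 array a group. Measured at both ages were Scgb2b2 with -5.54, Scgb2b20 with -4.60 and Scgb1b20 with -4.36. Where Mkx-KO at 4 weeks was not well above background, the change was at least that of Scgb1b27 at -7.08 and Scgb2b27 at -6.38. The Mup genes gave at least -7.90 for Mup1, -6.92 for Mup17, -6.91 for Mup5, -6.02 for Mup6 and -5.56 for Mup3. With means over probes the 4-week bounds of Scgb2b27 (-0.69) and Mup3 (-0.995) were under 2-fold, as were the 10-week differences of Mup1 (0.96), Mup6 (0.97) and Mup17 (0.97) with the deposited scaling and of Mup1 (0.99) and Mup17 (0.96) with normexp.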

How the results depend on the processing

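Of the counts over measured genes, those for lower in Mkx-KO at 10 weeks (5), lower at 4 weeks (12) and higher with age in WT (21) and in Mkx-KO (10) stayed within 1.5 times under normexp, quantile and median centring, the deposited scaling, means over probes, the other thresholds and 2 scanner errors. Without the background filter they were 8, 33, 22 and 30, the 4-week count of higher genes was 1, and that of genes lower with age in Mkx-KO was 6. The 12 genes higher in Mkx-KO at 10 weeks became 20 at 1.5-fold and 7 at 3-fold. The 8 genes lower with age in WT became 5 at 3-fold, and the 2 lower with age in Mkx-KO became 1 with the deposited scaling, 0 with normexp and 0 at 3-fold. Of 116 member differences past 2-fold, measured or bounded, 85 moved by more than the scanner error with normexp, and 16 of the 116 were under 2-fold with it, as were 7 with the deposited scaling, 3 with means over probes and 2 with quantile centring. The Scgb2b15 difference at 10 weeks was the only one that turned, to -0.98 with means over probes. The deposited scaling moved the median age difference of all measured genes by 0.36 in WT and 0.29 in Mkx-KO. Left-out replicates could not be tried with 1 array a group. No paired analysis was possible because each group has 1 array. Genes near background have bounds only, and the number of arrays limits precision.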
